A study of Rattus norvegicus with 21 samples.

Results

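Brain-derived neurotrophic factor, Bdnf, and its receptor tyrosine kinase TrkB, encoded by Ntrk2, were followed across cerebral cortex and hippocampus of rats exposed repeatedly to hypobaric hypoxia. The genes were taken by their Ensembl rat identifiers, ENSRNOG00000047466 for Bdnf and ENSRNOG00000018839 for Ntrk2, and not by a rule on their measured values. Earlier results of these data were known when they were chosen. Both were among the 30560 identifiers of the deposited table. All rats were wild-type SD males, 4 weeks old at the start of a 2 week acclimation. Exposed rats were taken in a hypobaric chamber to a simulated 28000 ft for 5 min, in 6 cycles 3 days apart, and were killed 24 h or 48 h after the last cycle, while control rats stayed in normal oxygen. Each tissue had 10 libraries, from 4 control rats, 3 rats at 24 h and 3 rats at 48 h, made from pieces of whole tissue. Of the 12 rats 8 were exposed and 1 of these died during exposure. 1 more library, whose title and tissue label name different tissues, entered no comparison. The expression of 4 libraries fell between that of cortex and hippocampus (in cortex control 3 and 24 h replicate 3, in hippocampus control 2 and 24 h replicate 2), and hippocampus control 1 was shallow, so the tissue and exposure results are given with and without these 5. In such bulk samples fewer cells of a type and less RNA per cell cannot be told apart. The labels name no region within cortex or hippocampus. The p-values measure the spread between libraries of a group, each from a different rat, and do not account for rats shared by the 2 tissues.

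BDNF is a secreted growth factor of the neurotrophin family. Neurons of cortex and hippocampus make it in response to activity, and it supports their survival, dendrites and synaptic plasticity. It binds TrkB, which then signals through its kinase domain, and the same gene also gives a truncated form without the kinase, which astrocytes carry abundantly. The deposited values are totals per gene, so full-length and truncated Ntrk2 transcripts were counted together, as were the Bdnf transcripts that start at different first exons.

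Bdnf is known for its several promoters, each feeding its own first exon into a shared coding exon, and RefSeq (build GRCr8) gave 6 start windows for it. Because the exposure was hypoxia, the 250 bases before each start were searched on both strands for the core of the hypoxia response element, ACGTG or GCGTG, to which hypoxia-inducible factors bind. The 2 windows with more than 1 core are shown, with the cores in capitals, read on the plus strand, so that a core on the other strand appears as CACGT or CACGC.
Bdnf window 1, chr3:116619383-116619632, plus strand, GRCr8: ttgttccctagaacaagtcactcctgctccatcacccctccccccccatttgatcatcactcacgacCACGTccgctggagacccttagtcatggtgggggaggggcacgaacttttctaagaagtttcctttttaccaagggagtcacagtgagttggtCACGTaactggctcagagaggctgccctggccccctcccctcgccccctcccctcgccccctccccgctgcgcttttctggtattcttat
Bdnf window 4, chr3:116637608-116637857, plus strand, GRCr8: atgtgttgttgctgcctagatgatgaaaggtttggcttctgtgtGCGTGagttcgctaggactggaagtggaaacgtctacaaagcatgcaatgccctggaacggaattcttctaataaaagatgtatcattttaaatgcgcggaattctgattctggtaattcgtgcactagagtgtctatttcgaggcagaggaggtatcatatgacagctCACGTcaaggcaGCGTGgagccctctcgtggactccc

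The first window held ACGTG at 183 and 90 bases before the start. The fourth held GCGTG at 206 and 25 bases and ACGTG at 37 bases before the start. The core at 37 bases overlapped the only TGACG among the 6 windows, the shorter site of the cyclic AMP response element through which neuronal activity acts on Bdnf. The fifth and sixth windows share 194 bases and the same GCGTG, and neither of the others held a core. A core is a common string, present in 36.7% of the 33469 promoter windows of the same length, and TGACG was present in 18.2% of them. The full palindrome TGACGTCA was in 0 of the 6 Bdnf windows and in 1.59% of all windows. These matches describe the letters only, and the counts per gene do not tell which start was used.

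Bdnf was lower in hippocampus than in cortex when averaged over the exposure groups. In control cortex its normalised read count, the number of reads divided by 1 size factor per library, was 504.3, 650.2, 131.5 and 396.0 in libraries 1 to 4, and in control hippocampus it was 151.0, 74.2, 227.7 and 176.2. Cortex control 3 was the exception, below 3 of the 4 hippocampus controls, and the other 3 cortex controls lay above all 4 of them. At 24 h the values were 547.5, 245.6 and 502.4 in cortex replicates 2, 3 and 4 and 435.4, 194.1 and 165.7 in the hippocampus replicates of the same numbers. Here hippocampus replicate 2 lay above cortex replicate 3, so the tissues overlapped. At 48 h the values were 685.1, 469.5 and 873.7 in cortex replicates 1, 2 and 3 and 191.2, 317.0 and 130.8 in hippocampus, without overlap.

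Over all exposure groups Bdnf ran from 131.5 to 873.7 in cortex, with a median of 503.4 (n = 10), and from 74.2 to 435.4 in hippocampus, with a median of 183.7 (n = 10). All 10 hippocampus libraries lay below the cortex median of their own exposure group, and the tissue ranges overlapped. The tissue difference averaged over the 3 exposure groups was -1.26 on the log2(value + 1) scale (SE 0.31, 95% interval -1.90 to -0.61), which corresponds to 2.39-fold more in cortex. It passed the threshold of an adjusted p of 0.05 in limma (adjusted p = 0.00716 over 15017 genes). In that comparison 21.8% of all genes tested were called, 11.1% as lower in hippocampus, and Bdnf was the 1 called gene of the pair. An exact permutation of the tissue labels within exposure groups, two-sided over 28000 arrangements, gave p = 0.00214 for Bdnf (adjusted p = 0.00321 over 3 quantities). This averaged comparison was added after the levels were seen. The labels do not say which cortex and hippocampus library came from 1 rat. The limma fit and the permutation therefore treated all libraries as independent. By the number of rats, however, all 4 control rats and most exposed rats must have given both tissues. Neither p-value accounts for that sharing.

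Within single exposure groups the Bdnf difference did not pass the threshold. It was -1.31 in controls (95% interval -2.32 to -0.29, limma adjusted p = 0.153), where 2.9% of genes were called. At 24 h it was -0.75 (95% interval -1.93 to 0.42, limma adjusted p = 0.581), with 1.8% of genes called, and at 48 h it was -1.71 (95% interval -2.88 to -0.54, limma adjusted p = 0.0806), with 5.29% called. Without cortex control 3 the control and 48 h differences passed in limma (adjusted p = 0.0315 and 0.0332), with 4.29% and 7.91% of genes called. It was the only 1 of the 20 libraries whose removal alone did so. Cortex control 3 held the lowest Bdnf value of cortex and is not itself part of the 48 h comparison. Over all libraries DESeq2 called both differences (adjusted p = 0.0374 and 0.0263) and edgeR called neither (adjusted p = 0.0956 and 0.0845).

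**Figure D1:**
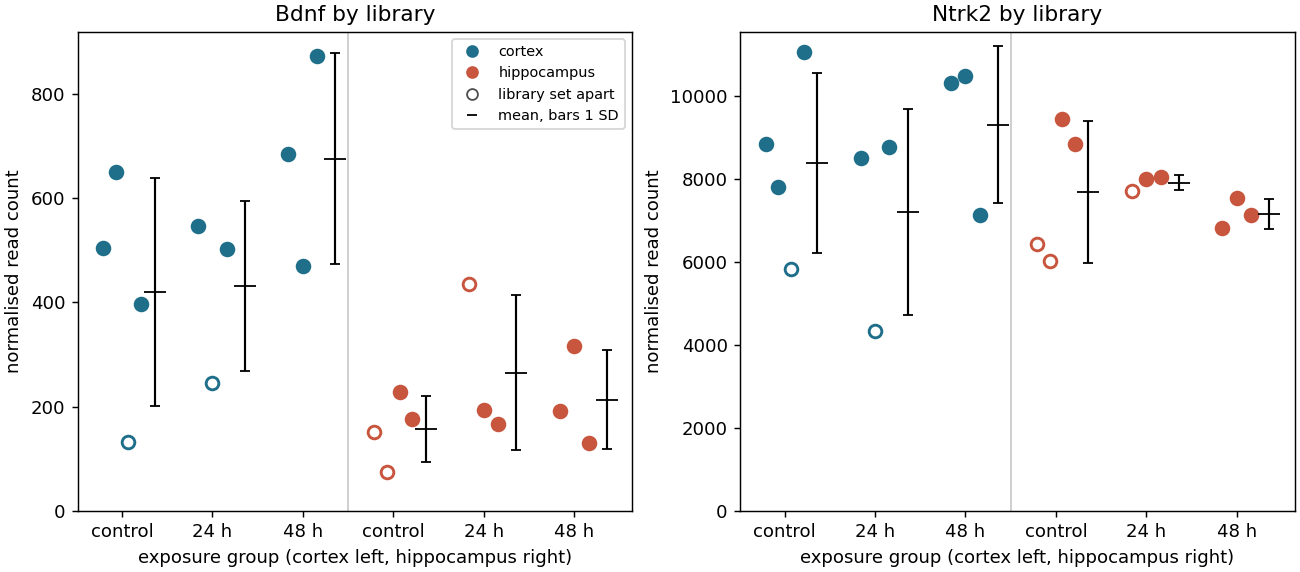
Normalised read count of Bdnf (left) and Ntrk2 (right) in each of the 20 libraries by tissue and exposure group; dots are libraries, open dots the 5 libraries set apart, and bars the mean with 1 SD. For Bdnf 9 of 10 hippocampus libraries lie at 317.0 or lower and 8 of 10 cortex libraries at 396.0 or higher, while the Ntrk2 ranges of the tissues overlap.

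Ntrk2 did not show the tissue difference of its ligand. Its normalised read count in control cortex was 8855, 7817, 5825 and 11059 in libraries 1 to 4, and in control hippocampus 6443, 6012, 9454 and 8838. The hippocampus controls all lay within the range of the cortex controls. At 24 h it was 8509, 4334 and 8774 in cortex replicates 2, 3 and 4 and 7714, 7996 and 8042 in hippocampus, where the hippocampus libraries lay between the cortex ones. At 48 h it was 10314, 10486 and 7132 in cortex replicates 1, 2 and 3 and 6814, 7537 and 7130 in hippocampus.

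The Ntrk2 tissue difference averaged over exposure groups was -0.09 (SE 0.16, 95% interval -0.42 to 0.24, limma adjusted p = 0.728), so a tissue difference above 1.33-fold in either direction lay outside the interval. The exact permutation test gave p = 0.587. In single exposure groups the difference was -0.12 in controls (95% interval -0.63 to 0.40), 0.21 at 24 h (-0.39 to 0.80) and -0.36 at 48 h (-0.95 to 0.23), each with a limma adjusted p of at least 0.514. The sign at 24 h turned without cortex 24 h replicate 3, to -0.13, and the 48 h difference passed when limma weighted the libraries (-0.49, adjusted p = 0.0320).

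The number of Ntrk2 reads per Bdnf read within a library is free of any scaling between libraries, and its change between tissues tests the genes against each other. The lengths of the transcripts differ, so only this change is read and not the ratio itself. In cortex the ratio was 17.6, 12.0, 44.3 and 27.9 in control libraries 1 to 4, 15.5, 17.6 and 17.5 at 24 h, and 15.1, 22.3 and 8.16 at 48 h. In hippocampus it was 42.7, 81.0, 41.5 and 50.2 in controls, 17.7, 41.2 and 48.5 at 24 h, and 35.6, 23.8 and 54.5 at 48 h. Cortex control 3, at 44.3, lay above 6 hippocampus libraries, and hippocampus 24 h replicate 2, at 17.7, lay below 3 cortex libraries. The mean log2 ratio was 1.17 higher in hippocampus, 2.25-fold, averaged over the exposure groups (exact permutation p = 0.0005, adjusted p = 0.0015, two-sided). The ligand and the receptor transcripts thus differed in their tissue difference beyond the spread between libraries. This ratio test was not among those planned. It draws on the same Bdnf and Ntrk2 values and treats the libraries as independent, so it is no separate evidence.

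**Figure D2:**
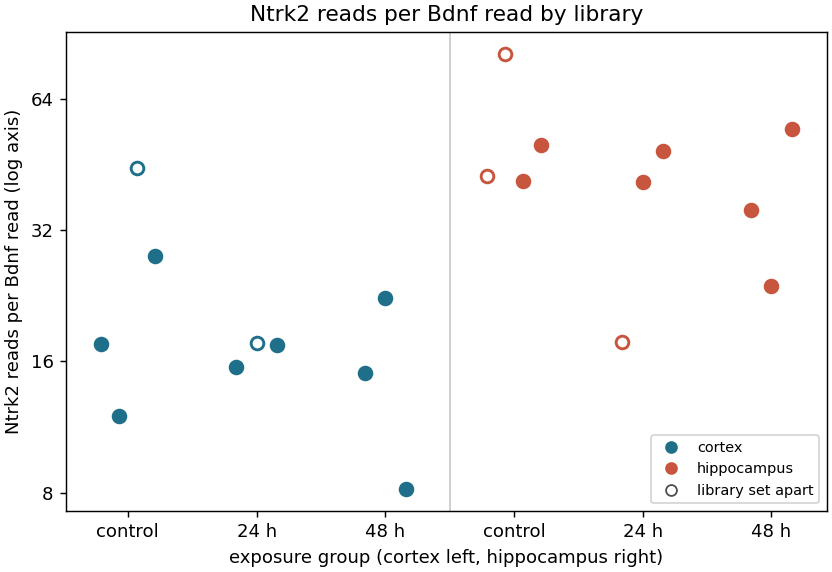
Ntrk2 reads per Bdnf read in each library on a log axis, by tissue and exposure group; dots are libraries and open dots the 5 libraries set apart. 9 of 10 cortex libraries lie at 27.9 or lower and 8 of 10 hippocampus libraries at 35.6 or higher.

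The 5 libraries that stood apart held the 2 lowest Bdnf values of cortex and both the lowest and the highest of hippocampus. The measure of tissue position is 0 at the cortex median and 1 at the hippocampus median of 308 to 377 genes with medians 4-fold or more apart, Bdnf and Ntrk2 left out. Cortex control 3 lay at 0.41 and cortex 24 h replicate 3 at 0.27, and these also had the 2 lowest Ntrk2 values of cortex. At 5825 and 4334, these Ntrk2 values lay below all hippocampus libraries, of which the lowest was 6012. Hippocampus 24 h replicate 2 lay at 0.46 and had the highest Bdnf value of hippocampus. Hippocampus control 2 lay at 0.30, toward cortex, and had the lowest Bdnf value of all 20 libraries. Its Bdnf, at 74.2, and that of cortex control 3, at 131.5, lay below both tissue medians, 183.7 in hippocampus and 503.4 in cortex. Between those medians lay the Bdnf of cortex 24 h replicate 3, at 245.6, and of hippocampus 24 h replicate 2, at 435.4. Hippocampus control 1, at 0.84, had 4654096 reads in genes against 11214566 to 19304803 in the others. The other 8 cortex libraries lay at -0.10 to 0.11 and the other 7 hippocampus libraries at 0.85 to 1.24. The part of tissue position in the Bdnf values was not tested.

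Without these 5 libraries the Bdnf tissue ranges parted. Cortex then ran from 396.0 to 873.7 (n = 8) and hippocampus from 130.8 to 317.0 (n = 7). The groups became very small, with only libraries 3 and 4 in control hippocampus and 1, 2 and 4 in control cortex. At 24 h only replicates 2 and 4 were left in cortex and 3 and 4 in hippocampus. All single-group differences and exposure changes without the 5 libraries rest on these. The averaged difference was -1.53 (SE 0.20, 95% interval -1.96 to -1.10, limma adjusted p = 6.18e-05), or 2.89-fold, and the difference passed in all 3 exposure groups (-1.33, -1.54 and -1.71, limma adjusted p = 0.0194, 0.0156 and 0.00174). Of all genes 45.8% were called in the averaged comparison and 17.1%, 15.7% and 27.9% in controls, at 24 h and at 48 h. The exact permutation test gave p = 0.000833 for Bdnf, the smallest that 1200 arrangements can give, and the log2 ratio was 1.38 higher in hippocampus (exact permutation p = 0.0025, adjusted p = 0.00375). For Ntrk2 the averaged difference was then -0.16 (95% interval -0.39 to 0.08, limma adjusted p = 0.252). Since the libraries were set apart for their place between the tissues or their depth, a clearer parting of tissue-dependent genes is built into this choice.

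**Figure D3:**
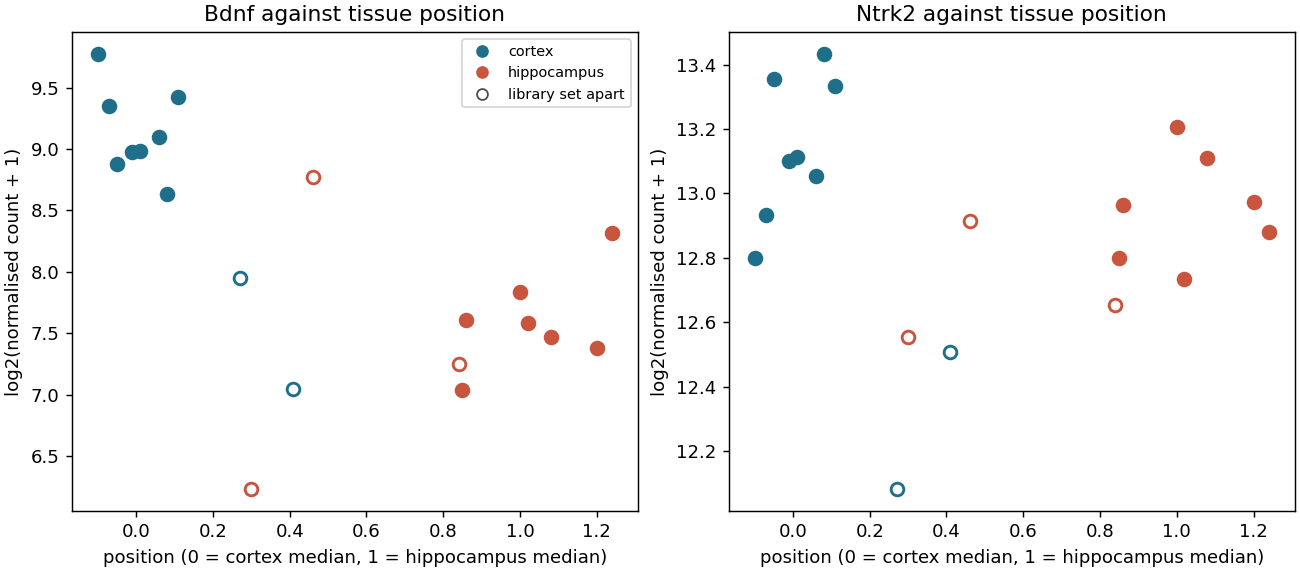
Level of Bdnf (left) and Ntrk2 (right), as log2(normalised count + 1), against the position of each library between the tissue medians; dots are libraries and open dots the 5 set apart. 4 open dots lie at positions from 0.27 to 0.46, and their Bdnf levels spread from 6.23 to 8.77.

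After hypoxia no change of Bdnf was found in cortex. Its level was 420 ± 219 (SD, n = 4) in controls, 432 ± 163 (SD, n = 3) at 24 h and 676 ± 202 (SD, n = 3) at 48 h. The log2 change was 0.17 at 24 h (95% interval -0.97 to 1.31, limma adjusted p = 0.952) and 0.86 at 48 h (-0.28 to 1.99, adjusted p = 0.885). Between 48 h and 24 h it was 0.68 (-0.53 to 1.90, limma adjusted p = 0.678), and it was 0.32 without cortex 24 h replicate 3 and 0.025 with library weights. At 48 h 2 of the 3 libraries lay above all controls and 1 lay among them. Without cortex control 3 the 48 h value was 0.37 (-0.39 to 1.13) and the 24 h value -0.31, and the 24 h value was -0.04 without cortex 24 h replicate 2. Without the 5 libraries set apart the changes were 0.05 at 24 h, 0.37 at 48 h and 0.32 between the times, and with library weights the 48 h change was 0.14.

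In hippocampus Bdnf was 157 ± 63.9 (SD, n = 4) in controls, 265 ± 148 (SD, n = 3) at 24 h and 213 ± 95 (SD, n = 3) at 48 h. The log2 change was 0.72 at 24 h (95% interval -0.34 to 1.79, limma adjusted p = 0.851), 0.45 at 48 h (-0.61 to 1.51, adjusted p = 0.928) and -0.27 between 48 h and 24 h (-1.41 to 0.87, adjusted p = 1). At each time 1 library lay above all controls and the other 2 lay among them. The 24 h value was 0.30 without hippocampus 24 h replicate 2 and the 48 h value 0.12 without hippocampus 48 h replicate 2. Without the 5 libraries set apart it was -0.16 at 24 h, -0.01 at 48 h and 0.15 between the times. The intervals over all libraries reach to 3.45-fold at 24 h and 2.86-fold at 48 h, so changes of that size in Bdnf could not be told from none.

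The intervals for Ntrk2 were narrower. In hippocampus it was 7687 ± 1713 (SD, n = 4) in controls, 7917 ± 178 (SD, n = 3) at 24 h and 7160 ± 362 (SD, n = 3) at 48 h, and all 6 exposed libraries lay within the range of the controls. The lower end of that range came from controls 1 and 2, at 6443 and 6012, which were set apart. All 6 lay below the other controls, at 9454 and 8838. Its log2 change was 0.07 at 24 h (95% interval -0.41 to 0.55, limma adjusted p = 0.923) and -0.08 at 48 h (-0.56 to 0.41, adjusted p = 0.952), and over all libraries a change above 1.47-fold lay outside either interval. Without the 5 libraries set apart the 24 h change was -0.19 (-0.60 to 0.22) and the 48 h change -0.35 (-0.73 to 0.02, limma unadjusted p = 0.0608), so the 48 h bound depends on them. With library weights the 48 h change was -0.29 (-0.62 to 0.03). Between 48 h and 24 h it was -0.15 (-0.66 to 0.37, limma adjusted p = 1), and -0.16 without the 5 libraries. In cortex it was 8389 ± 2179 (SD, n = 4) in controls, 7205 ± 2490 (SD, n = 3) at 24 h and 9311 ± 1888 (SD, n = 3) at 48 h. The log2 change was -0.25 at 24 h (-0.92 to 0.42, limma adjusted p = 0.850), 0.17 at 48 h (-0.50 to 0.83, adjusted p = 0.924) and 0.42 between 48 h and 24 h (-0.30 to 1.13, adjusted p = 0.658). Without cortex 24 h replicate 3, whose 4334 was the lowest of all 20 libraries, the 24 h change was 0.08 and the change between the times 0.09. The 48 h change was 0.0037 without cortex control 3. Without the 5 libraries the cortex changes were -0.08 at 24 h, 0.0037 at 48 h and 0.09 between the times. The changes at 24 h and 48 h share their control libraries.

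Of the 12 exposure tests within tissues, 6 for each gene, limma, edgeR and DESeq2 each called 0 and gave 0 with an unadjusted p of less than 0.05. The lowest unadjusted p in limma was 0.125. Over all genes limma called 0% in each of these 6 comparisons, and 1177, 515 and 1675 genes had an unadjusted p of less than 0.05 in cortex at 24 h, at 48 h and between the times, and 320, 241 and 25 in hippocampus. With no change, a share of 0.05 of the 14783 genes tested in cortex and 15028 in hippocampus would fall there. The hippocampus counts and that of cortex at 48 h lay below this share, so they do not show that no gene responded. edgeR called 0 genes in each of the 6 comparisons, and DESeq2 called 41, 2 and 145 in cortex and 2, 3 and 1 in hippocampus, with neither Bdnf nor Ntrk2 among them. Responses to the exposure were then set against each other across tissues. For Bdnf the 24 h response was 0.55 higher in hippocampus (95% interval -1.0 to 2.1, limma adjusted p = 0.869) and the 48 h response differed by -0.40 (-1.96 to 1.15, adjusted p = 0.998). For Ntrk2 these were 0.32 (-0.46 to 1.10, limma adjusted p = 0.857) and -0.24 (-1.03 to 0.54, adjusted p = 0.998), in comparisons where limma, edgeR and DESeq2 called 0% of genes. Without the 5 libraries these differences were -0.21 and -0.38 for Bdnf and -0.11 and -0.36 for Ntrk2.

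**Figure D4:**
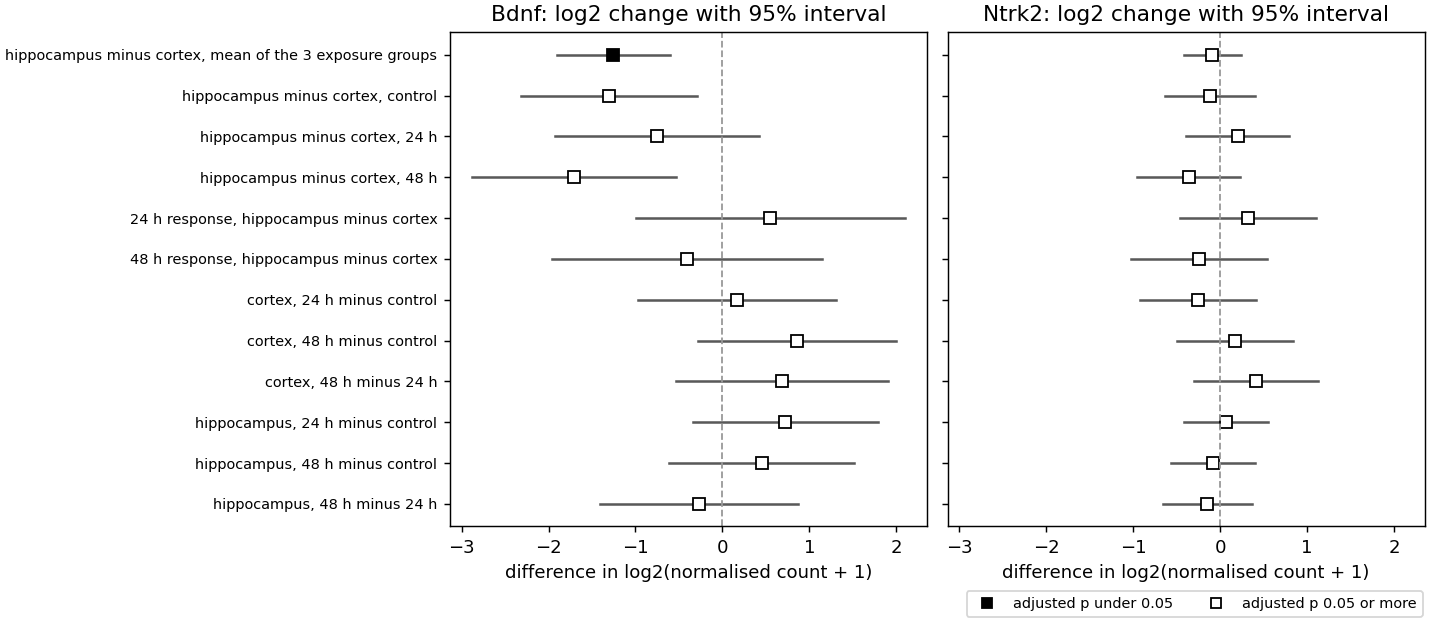
Differences in log2(normalised count + 1) for Bdnf (left) and Ntrk2 (right), squares with 95% intervals from limma; filled squares have an adjusted p under 0.05. The averaged tissue difference of Bdnf, at -1.26, is the 1 filled square, and the intervals of Ntrk2 are narrower than those of Bdnf.

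In order of their mean log2 level, Bdnf ran from cortex at 48 h, cortex at 24 h and control cortex down to hippocampus at 24 h, hippocampus at 48 h and control hippocampus. Each neighbour in this order overlapped the next. For Ntrk2 the order was cortex at 48 h, control cortex, hippocampus at 24 h, control hippocampus, hippocampus at 48 h and cortex at 24 h, again with overlap between all neighbours and with gaps of 0.05 to 0.17 on the log2 scale. Bdnf thus kept the tissues in separate blocks of the order and Ntrk2 did not.

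The pair also differed in how much its libraries varied. Within groups, Bdnf had a residual SD of 0.78 on the log2 scale in cortex, larger than that of 89.3% of the 14783 genes tested, and 0.69 in hippocampus, larger than that of 65.7% of 15028 genes. Ntrk2 had 0.43 in cortex, above 66.7% of genes, and 0.22 in hippocampus, above 7.47% of them. Over all cortex groups the SD of log2 Bdnf was 0.79, and 0.36 without the libraries set apart. For Ntrk2 it was 0.42 and 0.22. In hippocampus the same values were 0.69 and 0.40 for Bdnf and 0.20 and 0.17 for Ntrk2. Bdnf rested on fewer reads than Ntrk2, with 35 reads in hippocampus control 1, for which counting error alone gives an exact 95% Poisson interval of 105 to 210 around the value of 151.0, and 82 to 881 reads in the other 19 libraries. In cortex control 3, with 221 reads, the interval was 115 to 150, far from the next lowest cortex control of 396.0. Ntrk2 rested on 1493 reads in hippocampus control 1 and on 4905 to 12596 in the others. These intervals cover counting error only.

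Whether ligand and receptor varied together was examined within each tissue, as 2 relations. In cortex Pearson's r between the log2 levels was 0.55 (n = 10, permutation p = 0.10, adjusted p = 0.126) and Spearman's rho 0.10 (permutation p = 0.782, adjusted p = 0.782). The cortex r rested on cortex control 3 and cortex 24 h replicate 3, and was -0.71 without them (n = 8, permutation p = 0.046, adjusted p = 0.092). Spearman's rho was then -0.74 (permutation p = 0.0455, adjusted p = 0.0909). In hippocampus r was 0.51 (n = 10, permutation p = 0.126, adjusted p = 0.126) and rho 0.50 (permutation p = 0.143, adjusted p = 0.285), and r was 0.33 without the 2 libraries farthest from the median of Bdnf. Without the hippocampus libraries set apart r was 0.18 (n = 7, permutation p = 0.714). No relation had an adjusted p below the threshold in either tissue.

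The genes whose pattern over the 20 libraries was most like that of each member, by Spearman's rho among 12373 other genes with a mean of at least 50, can be given by identifier only, since neither the table nor the reference used here pairs other identifiers with names. For Bdnf they were ENSRNOG00000055382, with a rho of 0.94 and mean values of 271 in cortex and 111 in hippocampus, and ENSRNOG00000059510, with a rho of 0.92 and means of 2289 and 1585. For Ntrk2 they were ENSRNOG00000068555, with a rho of 0.92 and means of 399 and 339, and ENSRNOG00000004676, with a rho of 0.84 and means of 134 and 131. Bdnf and Ntrk2 themselves had a rho of 0.49. These are descriptions over libraries that share 2 tissues and came largely from the same rats. The other neurotrophins, their receptors and cell type markers were not analysed here for want of names, so the tissue labels were not checked against marker genes.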

How the data were processed

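RNA of cerebral cortex and hippocampus was sequenced from stranded mRNA libraries, per the labels' protocols. The submitters' processing notes name fastp 0.20.0, HISAT2 2.1.0 and featureCounts 2.0.1, while genome build, annotation, strand setting and count filter were not given in the sources used here. Signal per gene was deposited by the authors as 1 table, in which reads are divided by the library's size factor. All values were whole multiples of 1 read (within 0.001 of a read, 100% of values in all 21 columns), so reads were recovered.

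Groups came from sample titles. 1 library with conflicting tissue labels entered no comparison. Per the labels' protocols the rats of a group were separate animals, and in the 24 pairs of libraries within groups chi-square divided by its degrees of freedom was 15.6 to 265, so none is a repeat. Libraries held 4654096 to 19304803 reads in genes.

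log2(value + 1) was tested with limma 3.58.1 (R 4.3.3, intensity trend, two-sided, Benjamini-Hochberg adjustment over all genes with a mean of at least 10, threshold 0.05). Exposure tests used the 10 libraries of a tissue, and tissue and interaction tests all 20. Fold changes are on this scale. edgeR 4.0.16 and DESeq2 1.42.0 on the recovered reads, pseudocounts of 0.1 and 10, no filter, TMM scaling, library weights, a replicate block and leaving out libraries were alternatives. Permutation tests were exact, or used 100000 resamples for correlations. The limma, edgeR and DESeq2 fits were also run on simulated counts. These held no library between the tissues, so that run checks the code and not the results given here. The size factor rests on the median gene and would remove a shift of most genes.

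The members, lists and libraries set apart were chosen with earlier results of these data known. The lists of neurotrophin pathway genes and cell type markers could not be used, because 0 of 47357 RefSeq rows carry an Ensembl identifier. Named genes are the members and, for each, the 2 identifiers with the most similar pattern. Promoter sequences are RefSeq's, build GRCr8.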

Additional observations from a re-analysis of the deposited data

How the results depend on the processing

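The averaged tissue difference of Bdnf kept its direction and passed the threshold in every alternative run, from -1.18 with library weights to -1.53 without the 5 libraries set apart, and from -1.42 to -1.15 when each library was left out in turn (limma adjusted p 0.00086 to 0.0194). With the replicate number as a replicate block it was -1.26 (limma adjusted p = 0.0295). Same-numbered libraries of the tissues deviated together no more than others (r from -0.29 to 0.14, against -0.26 to 0.33 for different numbers). Whether they came from 1 rat is not known from the labels, so the block does not show the effect of pairing by rat. The block changed no call of either gene, and left 2 genes called in controls and 0 at 24 h, against 436 and 270.

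Some single-group tissue differences passed the threshold that they missed in the reported fit. For Bdnf these were -1.42 in controls and -1.66 at 48 h with DESeq2, -1.36 and -1.27 with library weights, -1.33, -1.54 and -1.71 in controls, at 24 h and at 48 h without the 5 libraries, and -1.71 at 48 h with only the libraries compared. For Ntrk2 it was -0.49 at 48 h with library weights (limma adjusted p = 0.0320). Over all genes tested with DESeq2, library weights and without the 5 libraries, 1523, 3785 and 2542 were called in controls, against 436 in the reported fit. At 24 h these counts were 1023, 3479 and 2327, against 270, and at 48 h 1950, 6169 and 4148, against 795. With only the libraries compared the counts were 94, 87 and 2796, and edgeR called 173 at 24 h. The averaged comparison called 7742 with library weights and 6812 without the 5 libraries, against 3269. The cortex comparison of 48 h with 24 h called 1335 with library weights and 5 without the libraries set apart, and 48 h against control called 1 with library weights, against 0 in each.

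Values that missed the threshold also changed sign. With library weights Ntrk2 was -0.086 between tissues at 24 h, -0.053 for the 24 h response between tissues and -0.16 in hippocampus at 24 h, and the 48 h response of Bdnf was 0.081 between tissues. Without the 5 libraries Ntrk2 was -0.11, -0.11 and -0.19 in those 3 comparisons. Bdnf was then -0.21 for the 24 h response between tissues, and in hippocampus -0.16 at 24 h, -0.0060 at 48 h and 0.15 between the times, and its cortex r with Ntrk2 was -0.71. The cause was not tested. Of 241 values from alternatives other than leaving out single libraries, 220 kept direction and side of the threshold.

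Leaving out each library in turn, the Bdnf tissue difference was -1.79 to -0.98 in controls, -1.18 to -0.48 at 24 h and -2.04 to -1.41 at 48 h, and its response between tissues 0.13 to 1.04 at 24 h and -0.74 to 0.079 at 48 h. In cortex Bdnf was -0.31 to 0.53 at 24 h and 0.32 to 0.92 between the times, and in hippocampus -0.61 to 0.15 between the times. For Ntrk2 the tissue difference was -0.28 to 0.030 in controls and -0.13 to 0.38 at 24 h, and the 24 h response between tissues -0.011 to 0.50. In cortex it was -0.43 to 0.080 at 24 h, 0.0037 to 0.35 at 48 h and 0.086 to 0.60 between the times, and in hippocampus -0.039 to 0.18 at 24 h and -0.19 to 0.032 at 48 h. Hippocampus control 1 held 35 Bdnf reads.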

Other observations

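The library titled as hippocampus at 24 h and labelled as cortex, which entered no comparison, had a Bdnf value of 76.5 from 74 reads (exact Poisson interval 60.0 to 96.0, counting error only) and an Ntrk2 value of 8048. Its Bdnf value was below all 10 cortex libraries and below 9 of the 10 hippocampus libraries, with hippocampus control 2 at 74.2 the exception. Its ratio of 105 Ntrk2 reads per Bdnf read was above those of all 20 libraries with a group, and its position between the tissues was 0.83.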
